A study of Mus musculus with 2 samples.

Results

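The 6 genes *Cthrc1*, *Spp1*, *Tspan6*, *Fscn1*, *Igfbpl1* and *Vtn* encode secreted matrix proteins and proteins of the cell surface and the motile cytoskeleton. They were followed in single-cell RNA-seq of 2 mouse small cell lung cancer (SCLC) tumors, TKO1 and TKO2. They are 6 of the 27998 genes in the count tables and were chosen from measured values. Among 2250 genes with at least 100 CPM (UMIs of a gene scaled to a common total, the unit of levels below) in the tumor where they were higher, their ratios of TKO2 to TKO1 tumor cells took ranks 2, 5, 6, 8, 9 and 10. *Vtn*, the last of them, had a ratio of 33.0, and the next genes outside were *Psat1* with 25.7 and *Fst* with 22.9. *Mycn*, the gene of the N-Myc transcription factor, ranked first with a ratio of 229.9 but was not chosen, and neither were *Ndn*, *Fam49a* and *Ddx1* at ranks 3, 4 and 7.

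Both tumors came from mice of genotype Rb-/-; Trp53-/-; Rbl2-/- (*Rbl2* encodes p130), so every cell group below shares these 3 deletions. The virus was Adeno-CMV-cre, whose promoter does not restrict Cre to a cell type, and a Rosa26 membrane-Tomato or membrane-GFP reporter was carried. The mice were of mixed background (129/SVJ, 129/SvOla and also C57BL/6). Tumors were taken 7 months after induction, at an age of 8 to 9 months, as 1 dissected tumor from each of 2 mice, sorted for live cells and made into 1 droplet library each. Tumor, mouse and library therefore cannot be told apart, no p-value can be given, and intervals below are 95% intervals that cover counting error only.

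The TKO1 library held 4514 barcodes with 5285038 unique molecular identifiers (UMIs) and the TKO2 library 3816 barcodes with 8291430 UMIs. Barcodes with more than 500 detected genes were retained, 3193 in TKO1 and 3568 in TKO2, with median depths of 1223 and 1960 UMIs. The libraries shared 22 barcodes. Clusters were found in each tumor without using the 6 genes. Of the retained cells 2990 in TKO1 and 3377 in TKO2 were neuroendocrine-like and are called tumor cells, in 7 and 10 clusters. All 18 neuroendocrine markers were detected in both, at a summed 6759 CPM in TKO1 and 2152 CPM in TKO2. Macrophage-like clusters held 97 and 123 cells with 41500 and 35746 CPM of 13 macrophage markers. Of the cell types known to make matrix, little was found in TKO2 tumor cells, where 7 fibroblast markers summed to 1.42 CPM, 6 endothelial markers to 0.516 CPM and 3 mesothelial markers to 0.129 CPM.

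Osteopontin (*Spp1*) and vitronectin (*Vtn*) are secreted glycoproteins that integrins bind through the tripeptide arginine-glycine-aspartate (RGD), which lets cells attach and migrate. *Spp1* is known from bone and from macrophages that remodel tissue, and *Vtn* is made in bulk by the liver. *Cthrc1* encodes a secreted protein with a collagen triple-helix repeat that is made in wound repair and acts in planar polarity signalling through Wnt receptors. *Fscn1* encodes fascin, which bundles actin into the stiff cores of filopodia. *Tspan6* encodes a tetraspanin, a membrane protein that organises partners at the cell surface, and *Igfbpl1* a secreted relative of the insulin-like growth factor (IGF) binding proteins. SCLC cells grow as neuroendocrine cells with a mostly epithelial or neuronal gene program.

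*Spp1* (ENSMUSG00000029304) lies at chr5:104435118-104441050 on the plus strand of GRCm38, and *Vtn* (ENSMUSG00000017344) at chr11:78499091-78502324, also plus. The coding stretches around their RGD codons are shown because they carry the property that puts both proteins among the integrin ligands. Capitals mark the 3 codons of RGD, read from GENCODE M21 and GRCm38 at chr5:104439472-104439498 (exon 7 of 8, residue 145 of 295) and chr11:78499703-78499723 (exon 3 of 8, residue 64 of 478).
Spp1 RGD codons: cccaacggcCGAGGTGATagcttggct
Vtn RGD codons: acgCGGGGGGACgtgttcact
RGD stood in the coding product of 1563 of 21562 genes (7.25%). It was in none of the other 4 members, which spanned 245 residues for *Cthrc1* and *Tspan6*, 270 for *Igfbpl1* and 493 for *Fscn1*.

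The bases before the starts of *Spp1* and *Vtn* are shown because these 2 genes shared their high cells, as described below. They are RefSeq promoters of GRCm38.p6 at chr5:104434861-104435110 and chr11:78498870-78499090, both on the plus strand, and capitals mark the E-box CANNTG, which reads the same on both strands.
Spp1 promoter: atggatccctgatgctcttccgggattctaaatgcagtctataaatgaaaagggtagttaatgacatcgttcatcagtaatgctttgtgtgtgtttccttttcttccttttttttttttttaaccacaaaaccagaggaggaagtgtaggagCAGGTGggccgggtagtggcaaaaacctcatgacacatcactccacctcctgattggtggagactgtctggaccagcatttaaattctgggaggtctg
Vtn promoter: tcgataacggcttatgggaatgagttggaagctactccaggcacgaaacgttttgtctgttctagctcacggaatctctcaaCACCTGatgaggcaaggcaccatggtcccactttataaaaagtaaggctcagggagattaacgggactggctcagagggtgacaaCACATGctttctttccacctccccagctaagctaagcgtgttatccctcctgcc
CANNTG was found 1 time before *Spp1* and 2 times before *Vtn*, against 66.2% of 32851 promoters of 250 bases with a match. Motifs were searched in all 250 bases of each promoter, whereas the *Vtn* stretch shows only the first 221, up to its GENCODE start. The Myc E-box CACGTG, a special case of CANNTG, and the RBPJ motif GTGGGAA, searched on both strands, had 0 matches in the promoters of *Spp1*, *Vtn*, *Tspan6* and *Fscn1*. They occur in 6.02% and 5.42% of all promoters. Promoters were matched for 4 of the 6 genes, not for *Cthrc1* and *Igfbpl1*.

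All 6 genes had far more UMIs in TKO2 than in TKO1 tumor cells, which is how they were chosen. *Cthrc1* had 831 UMIs in TKO2, or 107 CPM (100.1 to 115), and 4 UMIs in TKO1, or 0.946 CPM (0.258 to 2.42), a ratio of 113. *Spp1* had 3690 UMIs, 476 CPM (461 to 492), against 23 UMIs and 5.44 CPM, a ratio of 87.5. *Tspan6* had 794 UMIs, 102 CPM, against 5 UMIs and 1.18 CPM, a ratio of 86.6. These 3 genes were close to absent from TKO1 tumor cells and reached 3 to 8 TKO1 cells each. *Fscn1* had 1354 UMIs, 175 CPM, against 15 UMIs and 3.55 CPM, a ratio of 49.2. *Igfbpl1* had 1413 UMIs, 182 CPM, against 18 UMIs and 4.26 CPM, a ratio of 42.8. *Vtn* had 1393 UMIs, 179.8 CPM, against 23 UMIs and 5.44 CPM, a ratio of 33.0. On the log2 scale the intervals ran from 5.46 to 8.70 for *Cthrc1* and from 4.45 to 5.71 for *Vtn*, so the order of the 6 ratios is not resolved between neighbours. Of 12918 genes with at least 10 UMIs over both tumors, 4.83% were at least 4-fold higher and 14.4% at least 4-fold lower in TKO2, with a median log2 ratio of -0.37. Since this contrast chose the genes, nothing is read from their share. Among called genes 25.1% were higher in TKO2, and this became 35.6% when the totals were scaled by TMM factors, which moved the median of all genes to -0.02.

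**Figure D1:**
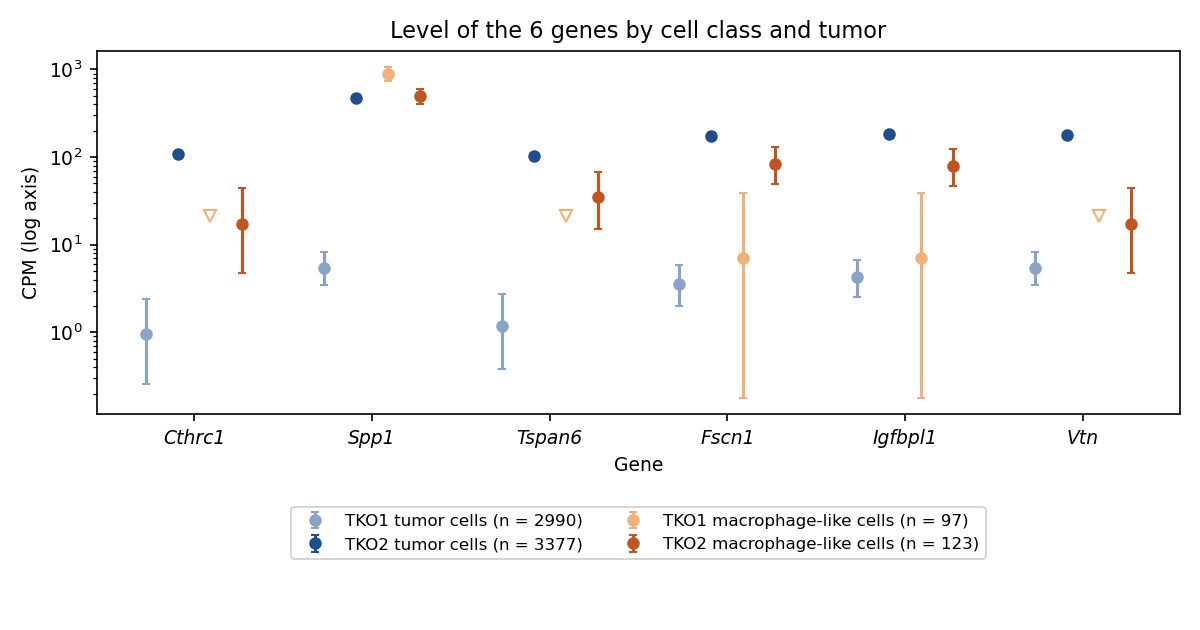
Level of each of the 6 genes in CPM (log axis) in tumor cells and macrophage-like cells of TKO1 and TKO2. Points are summed UMIs over the total, bars are exact Poisson intervals, and open triangles mark the limit that 0 UMIs allow (21.2 CPM). *Spp1* stood at 890.3 CPM in TKO1 macrophage-like cells against 5.44 CPM in TKO1 tumor cells, and the other 5 genes were highest in TKO2 tumor cells.

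Each neuroendocrine-like cluster was also set against every cluster of the other tumor, since leading genes of some clusters included markers of other cell types (clusters 1, 3 and 6 of TKO1 and cluster 9 of TKO2). For *Cthrc1*, *Tspan6*, *Fscn1* and *Igfbpl1* the lowest TKO2 cluster, at 24.5, 41.2, 77.5 and 96.9 CPM, was above the highest TKO1 cluster, at 2.96, 4.87, 8.35 and 14.8 CPM. Of all genes 4.93% were higher in every TKO2 than in every TKO1 cluster. The contrast of the tumors chose these genes, so nothing is read from how many stayed apart. *Spp1* and *Vtn* overlapped, because their lowest TKO2 clusters had 4.26 and 7.46 CPM while their highest TKO1 clusters had 30.9 and 9.26 CPM. In TKO1 17 of the 23 *Spp1* UMIs lay in 2 cells of cluster 5, with 11 and 6 UMIs. These 2 cells held 3 and 1 macrophage marker UMIs, and the other 6 TKO1 tumor cells with *Spp1* held 0. Without clusters 1, 3 and 6 of TKO1 and cluster 9 of TKO2 the log2 ratio of *Spp1* was 5.39 in place of 6.45. That of *Vtn* was 4.29 in place of 5.05. Cluster 9 was rich in both genes, so its removal lowers both values.

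Within TKO2, *Spp1* and *Vtn* were concentrated in a small share of the tumor cells, whereas the other 4 genes were spread over all clusters. Clusters 7 and 9, singled out after their *Spp1* values were seen, held 304 of 3377 tumor cells (9.00%) and 10.7% of the UMIs. They held 91.1% (90.1 to 92.0) of the *Spp1* UMIs and 78.2% (76.0 to 80.4) of the *Vtn* UMIs. At a clustering resolution of 0.4 a single *Spp1*-rich cluster of 198 cells held 47.6% and 53.9%. The shares for *Tspan6*, *Cthrc1*, *Fscn1* and *Igfbpl1* were 19.5%, 18.1%, 14.9% and 13.8%. *Spp1* reached 3830 CPM in cluster 7 and 4394 CPM in cluster 9, and between 4.26 and 139.6 CPM in the other 8 clusters. *Vtn* reached 1212 and 1476 CPM there, and between 7.46 and 102 CPM elsewhere. No other TKO2 cluster came near either of them.

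Summed over clusters 7 and 9, *Spp1* stood at 4039 CPM against 47.7 CPM in the other TKO2 tumor cells, 84.7-fold higher (log2 6.40, interval 6.24 to 6.57). *Vtn* stood at 1310.4 against 43.8 CPM, 29.9-fold higher (log2 4.90, interval 4.72 to 5.09). The log2 differences of *Tspan6* (1.01), *Cthrc1* (0.87), *Fscn1* (0.54) and *Igfbpl1* (0.41) were smaller and had intervals above 0. Of 11553 genes 1.94% were at least 4-fold higher and 1.62% at least 4-fold lower in clusters 7 and 9. In the other TKO2 tumor cells *Spp1* and *Vtn* were still 8.77-fold and 8.05-fold higher than in TKO1 tumor cells, and the remaining 4 genes 41.3-fold to 104-fold higher, where 4.46% of 12786 genes were at least 4-fold higher and 14.7% lower. Clusters 7 and 9 themselves were 742-fold above TKO1 tumor cells for *Spp1* and 241-fold for *Vtn*. There 4.17% of 12014 genes were at least 4-fold higher and 12.2% lower. The genes were chosen by the contrast with TKO1 and the clusters by their *Spp1*, so nothing is read from these shares.

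Clusters 7 and 9 held neuroendocrine markers at the level of the other tumor cells, although the leading genes of cluster 9 include *Tppp3*, a ciliated-cell marker. Neuroendocrine markers summed to 1933 and 2202 CPM there and to 2166 CPM in the other TKO2 tumor cells. Of 13 macrophage markers 10 were at 0 in both clusters, *Cd68*, *Csf1r* and *Tyrobp* included, and the sum was 11.5 and 22.7 CPM against 13.3 CPM in the other tumor cells. *Mycn* stood at 2626 CPM in these clusters and 2913 CPM in the rest. The ciliated-cell list had a single detected member there, *Tppp3*, at 65.0 and 204 CPM against 4.63 CPM in the other tumor cells, and its part in the result was not tested.

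Other genes that set these clusters apart, chosen after their values were seen, included targets and a receptor of Notch signalling. *Hes5* stood at 501 and 667 CPM in clusters 7 and 9 and at 45.5 CPM elsewhere, *Hey1* at 241 and 291 against 21.3 CPM, and the receptor gene *Notch1* at 34.4 and 22.7 against 2.60 CPM. *Id3*, which encodes an inhibitor of basic helix-loop-helix factors, stood at 859 and 907 against 50.5 CPM. *Ptn*, the gene of the secreted growth factor pleiotrophin, stood at 1430.2 and 1451 against 378 CPM. *Hes6* was lower, at 549 and 418 against 1080.5 CPM. The imprinted non-coding RNA *Meg3* stood at 134 and 188 against 2.60 CPM. TKO1 tumor cells, which had little *Spp1* and *Vtn*, had 1311 CPM of *Id3* and 854 CPM of *Ptn*. Their *Hes5* (8.28 CPM), *Hey1* (39.3 CPM), *Notch1* (0 CPM) and *Meg3* (0 CPM) were below clusters 7 and 9.

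**Figure D2:**
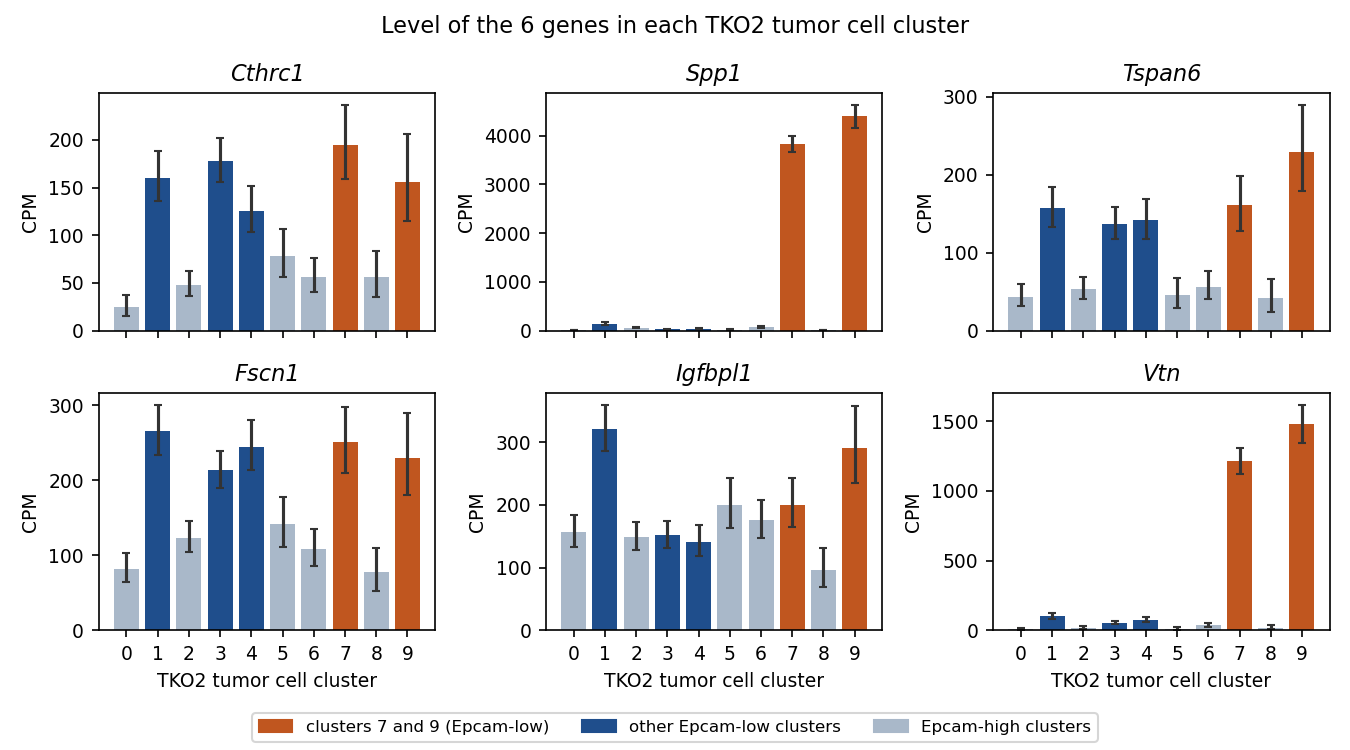
Level of each gene in CPM (linear axis from 0) in each of the 10 TKO2 tumor cell clusters, with exact Poisson intervals. *Spp1* and *Vtn* stood out in clusters 7 and 9, whereas *Cthrc1*, *Tspan6* and *Fscn1* were higher in the 5 clusters with low *Epcam* (orange and dark blue) than in the 5 with high *Epcam* (grey).

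*Cthrc1*, *Tspan6* and *Fscn1* followed a different division of the TKO2 tumor cells, between clusters with low and with high *Epcam*, an epithelial adhesion gene. The limit of 300 CPM of *Epcam* was set after the values were seen. Clusters 1, 3, 4, 7 and 9 (1590 cells, 47.1%) had 42.2 to 169 CPM of *Epcam*, and clusters 0, 2, 5, 6 and 8 (1787 cells, 52.9%) had 499 to 1248 CPM. *Cthrc1* ranged from 126 to 195 CPM in the *Epcam*-low clusters and from 24.5 to 78.4 CPM in the *Epcam*-high clusters. *Tspan6* ranged from 137 to 229.9 against 41.2 to 56.3 CPM. *Fscn1* ranged from 213 to 265 against 77.5 to 141 CPM, so none of these 3 genes overlapped.

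*Vtn* was also apart, with 55.5 to 1476 against 7.46 to 34.8 CPM, while *Spp1* (23.2 to 4394 against 4.26 to 73.7 CPM) and *Igfbpl1* (141 to 322 against 96.9 to 199.9 CPM) overlapped. Of all genes tested 4.19% were higher in every *Epcam*-low than in every *Epcam*-high cluster, and 7.32% were lower. Summed over each side, the *Epcam*-low cells had 3.33-fold more *Cthrc1*, 3.12-fold more *Tspan6* and 2.22-fold more *Fscn1*. Without clusters 7 and 9 these ratios were 3.23, 2.94 and 2.21, where 7.06% of genes were apart in the same direction. *Vtn* went from 18.5-fold to 4.14-fold and *Spp1* from 24.6-fold to 1.69-fold when clusters 7 and 9 were left out, and *Igfbpl1* from 1.31-fold to 1.26-fold. The median depths of the 2 sides were 2130.5 and 1851 UMIs.

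The *Epcam*-low side had less of other epithelial genes, such as *Krt8* (27.4 against 544 CPM), *Krt7* (114 against 907 CPM) and the tight junction gene *Cldn3* (37.2 against 305 CPM). It had more of the transcription factor genes *Zeb2* (45.5 against 9.82 CPM) and *Neurod1* (21.6 against 2.39 CPM), of the neuronal gene *Stmn2* (122 against 9.02 CPM) and of *Nr2f1* (77.4 against 9.29 CPM). *Mycn* stood at 3488 against 2243 CPM, and its clusters overlapped (2453 to 3985 against 1238 to 3156 CPM). Without clusters 7 and 9 its *Epcam*-low clusters began at 3445 CPM and were apart, as were 7.06% of genes. The part of *Mycn* in the result was not tested. Cluster 3 with 665 CPM of the mitotic gene *Cdk1* was *Epcam*-low and cluster 8 with 981 CPM was *Epcam*-high, so both sides held dividing cells. Summed over each side, the *Epcam*-low cells had more *Cdk1* (359 against 251 CPM) and more *Top2a* (246 against 203 CPM). The part of cell division in the result was not tested. Even the *Epcam*-high TKO2 cells had 51.6-fold more *Cthrc1*, 41.5-fold more *Tspan6*, 36.9-fold more *Igfbpl1* and 30.3-fold more *Fscn1* than TKO1 tumor cells, whose *Epcam* stood at 1292 CPM. *Spp1* and *Vtn* were 6.68-fold and 3.32-fold higher in that comparison.

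The same cells were also read one by one at a fixed depth. The division had been chosen after these data were seen, so this reading is no separate support for it. Each of 3017 TKO2 tumor cells with at least 1000 UMIs was thinned to 1000 UMIs, which left out 360 shallower cells. Cells were then grouped by their UMIs of 5 epithelial genes (*Epcam*, *Krt7*, *Krt8*, *Krt18* and *Cldn3*). *Cthrc1* was found in 12.5% of the 1317 cells with 0 such UMIs and in 4.27% of the 820 cells with 3 or more. *Tspan6* was found in 184 and 42 of these cells, the second number being 5.12% of its group. For *Fscn1* the shares were 19.2% and 8.90%, for *Vtn* 13.7% and 1.34%, while *Spp1* was found in 112 and 8 cells. Without clusters 7 and 9 the shares were 4.12% and 1.10% for *Vtn*, 2.01% and 0.978% for *Spp1*, 11.9% and 4.28% for *Cthrc1* and 19.7% and 8.92% for *Fscn1*. *Igfbpl1* differed least of the 6 over all tumor cells, with 237 and 108 cells, the second number being 13.2%. UMIs in a thinned cell sum to a constant, so these shares are a description.

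At the fixed depth *Igfbpl1* was found in 15.4% (14.1 to 16.7) of TKO2 tumor cells, *Fscn1* in 13.9% (12.7 to 15.2), *Tspan6* in 9.28% and *Cthrc1* in 8.32%. *Vtn* was found in 7.62% and *Spp1* in 4.91%, although *Spp1* had the most UMIs of the 6. Without thinning, at a median depth of 1983 UMIs, 869, 918, 593, 541, 372 and 192 of the 3377 cells held them, listed as above. *Fscn1* then had the highest share, 27.2%, before *Igfbpl1* with 25.7%, and *Spp1* the lowest, 5.69%. In 114 thinned TKO2 macrophage-like cells, which lack neuroendocrine identity and had a median depth of 1669 UMIs before selection, *Vtn* was found in 0.877%, *Cthrc1* and *Tspan6* in 1.75%, *Fscn1* in 3.51% and *Igfbpl1* in 5.26%. In 2150 thinned TKO1 tumor cells the shares of all 6 genes lay between 0.0930% and 0.698%.

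The spread between cells separated *Spp1* from the rest. The Fano factor, the variance divided by the mean, was 26.9 for *Spp1*, 3.52 for *Vtn* and between 1.19 and 1.36 for the other 4, where 1 is the value of pure counting noise. The highest cell held 87 UMIs of *Spp1* among its 1000, and 50 cells held at least 10. For *Cthrc1*, *Tspan6*, *Fscn1* and *Igfbpl1* the highest cell held 4 to 6. Even in clusters 7 and 9 *Spp1* was uneven: it was found in 39.0% (33.2 to 45.0) of 277 thinned cells, 48 of them with at least 10 UMIs, with a Fano factor of 24.5. *Vtn* was found in 59.9% of these cells at lower counts, with at most 12 UMIs. In the other 2740 cells *Spp1* was found in 1.46% and *Vtn* in 2.34%.

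**Figure D3:**
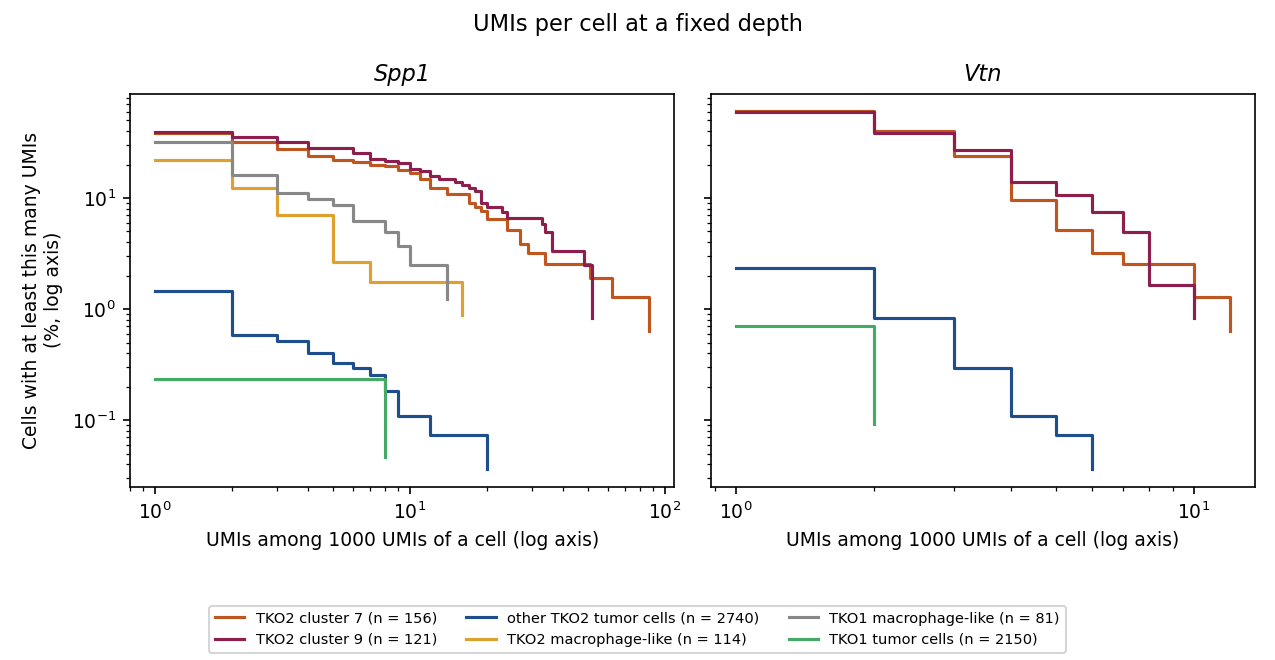
Share of cells (%, log axis) with at least a given number of *Spp1* or *Vtn* UMIs (log axis) among 1000 UMIs of the cell, for TKO2 clusters 7 and 9, other TKO2 tumor cells, TKO1 tumor cells and the macrophage-like cells of both tumors. The *Spp1* curves of clusters 7 and 9 end at 87 and 52 UMIs, whereas their *Vtn* curves start higher (59.9% of the 277 cells of both clusters) and end at 12 and 10 UMIs.

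Few cells held several of the 6 genes. Of the 3017 thinned TKO2 tumor cells 57.5% held none, 29.8% held 1 and 9.12% held 2, and no cell held all 6. In clusters 7 and 9 16.6% held none and 35.0% held 2. Across the 3017 cells, which share 1 library and a fixed depth, the Pearson correlations of the 15 pairs had a median of 0.028 and ran from -0.025 to 0.387. The highest was *Spp1* with *Vtn* (0.387, Spearman 0.45), and the next was 0.082. Of the 148 cells with *Spp1* 58.8% also held *Vtn*, against 4.98% of the cells without *Spp1*. The correlation of this pair was 0.23 within clusters 7 and 9 and 0.32 in the other tumor cells, where 12 cells held both genes. Sparse counts hold correlations near 0, so the weak values of the other pairs say little.

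Summed over clusters, where counts are less sparse, the weak pairs looked different. The lowest clusters still held only 3 UMIs of *Spp1* and 6 of *Vtn*. The highest pair over the 10 clusters was *Spp1* with *Vtn*, at 0.999, and that pair had 0.72 over the 8 clusters without 7 and 9. Across the 10 TKO2 clusters, which are groups of cells of 1 library and no replicates, the correlation of *Cthrc1* with *Fscn1* was 0.92, of *Tspan6* with *Fscn1* 0.88 and of *Cthrc1* with *Tspan6* 0.86. Over the 8 clusters without 7 and 9 these were 0.91, 0.96 and 0.92, and *Vtn* then had 0.95 with *Tspan6* and 0.92 with *Fscn1*. *Igfbpl1* had at most 0.66 with any of the 5 others over the 10 clusters, and over the 8 its highest value was 0.80, with *Spp1*.

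**Figure D4:**
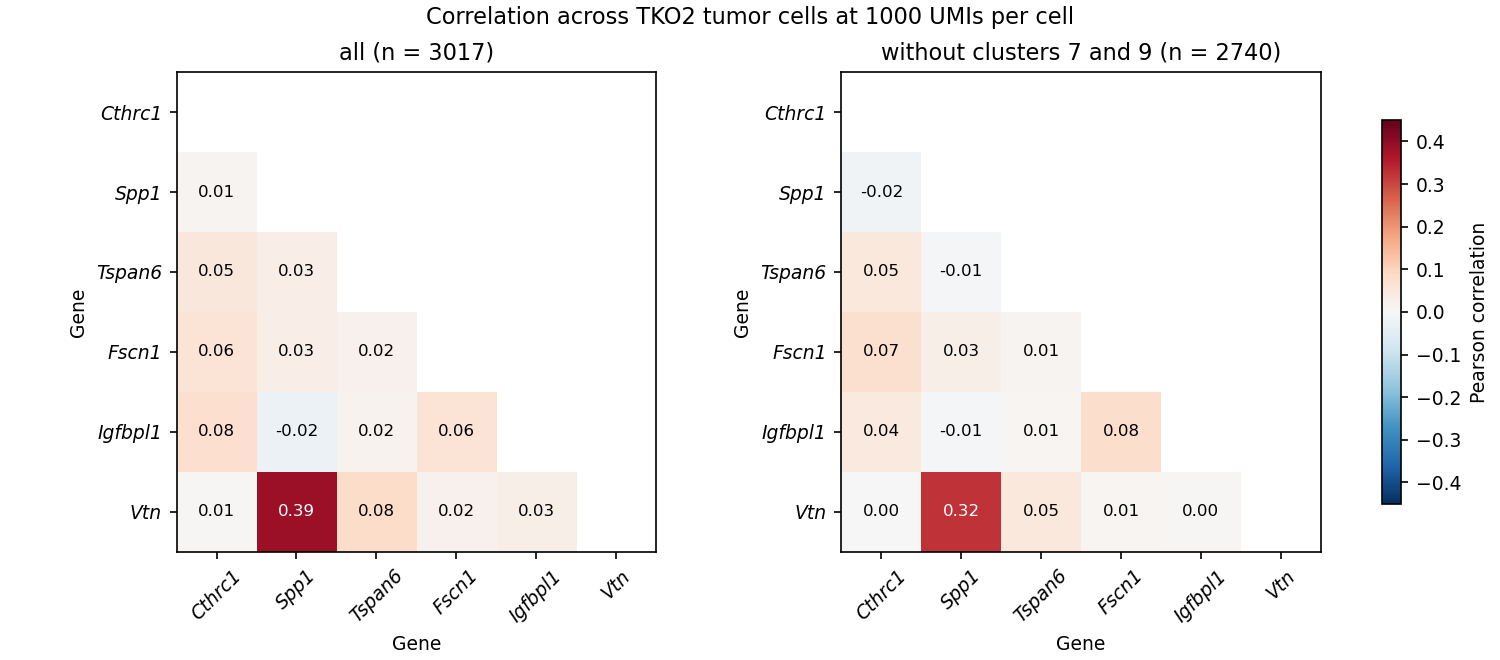
Pearson correlation of each of the 15 pairs across TKO2 tumor cells at 1000 UMIs per cell, for all 3017 cells and for the 2740 cells outside clusters 7 and 9. *Spp1* with *Vtn* is the only pair above 0.1 in either panel, at 0.39 and 0.32.

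Among 2950 genes averaging 0.05 UMIs or more over thinned TKO2 tumor cells, the genes most like *Spp1* across the 3017 cells were *Vtn* (0.39), *Ptn* (0.35) and *Id3* (0.33). Those most like *Vtn* were *Spp1* (0.39), *Id3* (0.38) and *Ptn* (0.37). Outside clusters 7 and 9 the correlation of *Vtn* with *Id3* was 0.068 and with *Ptn* 0.084, and that of *Spp1* with *Id3* was 0.21 and with *Ptn* 0.046. The genes most like *Fscn1* were *Tmsb4x* (0.12), which encodes the actin-sequestering thymosin beta 4, *Tuba1a* and *Marcksl1*. *Tuba1a*, a tubulin gene of growing neurons, came first for *Cthrc1* (0.097) and *Igfbpl1* (0.12), and *Tmsb4x* first for *Tspan6* (0.087). The lowest correlations of *Cthrc1* were with *Epcam* (-0.090) and *Cd9*, and those of *Fscn1* with *Cd9*, *Krt7* and *Krt8*.

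*Spp1* was the one member with a level in macrophage-like cells of TKO1 as well. It had 126 UMIs there, 890.3 CPM (742 to 1060.1), in 31 of 97 cells, 164-fold above the TKO1 tumor cells, where 6.89% of 11908 genes were at least 4-fold higher in tumor cells and 6.12% lower. In TKO2 it had 114 UMIs, 495 CPM (408 to 595), in 28 of 123 macrophage-like cells. TKO2 was thus 0.85 lower on the log2 scale (interval -1.23 to -0.47), short of the 4-fold limit, which 3.54% of 4780 genes passed upward and 3.12% downward. At fixed depth *Spp1* was found in 32.1% (22.2 to 43.4) of 81 TKO1 and 21.9% (14.7 to 30.6) of 114 TKO2 macrophage-like cells, and these intervals overlap.

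The other 5 genes were nearly absent from TKO1 macrophage-like cells. *Cthrc1*, *Tspan6* and *Vtn* had 0 UMIs, which allows up to 21.2 CPM, and *Fscn1* and *Igfbpl1* had 1 UMI each. In TKO2 they had 4 to 19 UMIs, with 82.5 CPM of *Fscn1*, 78.2 of *Igfbpl1*, 34.7 of *Tspan6* and 17.4 of *Cthrc1* and of *Vtn*. TKO2 tumor cells were 10.3-fold above the macrophage-like cells for *Vtn* and 6.17-fold for *Cthrc1*, where 4.4% of 11981 genes were at least 4-fold higher and 8.67% lower. The ratios for *Tspan6*, *Igfbpl1* and *Fscn1* were 2.95, 2.33 and 2.12, and the log2 ratio of *Spp1* was -0.06 (interval -0.33 to 0.23). That value was -0.66 without cluster 9, whose leading genes include a marker of another cell type, and -0.54 with barcodes of more than 200 genes. Cluster 9 was singled out by its *Spp1*, so its removal lowers the value.

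Genes of tumor cells were also found in the TKO2 macrophage-like cells, and their levels are the background for these values. The 18 neuroendocrine markers and *Mycn* had macrophage over tumor cell ratios between 0.123 and 4.81, with a median of 0.331, the highest being *Resp18*. For the 16 of them with at least 100 UMIs in tumor cells, a limit chosen after the values were seen, the highest ratio was 0.791 (*Ddc*) and the median 0.314. *Fscn1* (0.472), *Igfbpl1* (0.429), *Tspan6* (0.339), *Cthrc1* (0.162) and *Vtn* (0.0966) lay within or below that range. *Spp1*, at 1.04 (0.855 to 1.25), lay above the 16 and below *Resp18*. Dendritic cell markers, whose cell type is known for fascin, summed to 195 CPM in the TKO2 macrophage-like cells with 4 of 5 detected, and their part in the *Fscn1* value was not tested.

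**Figure D5:**
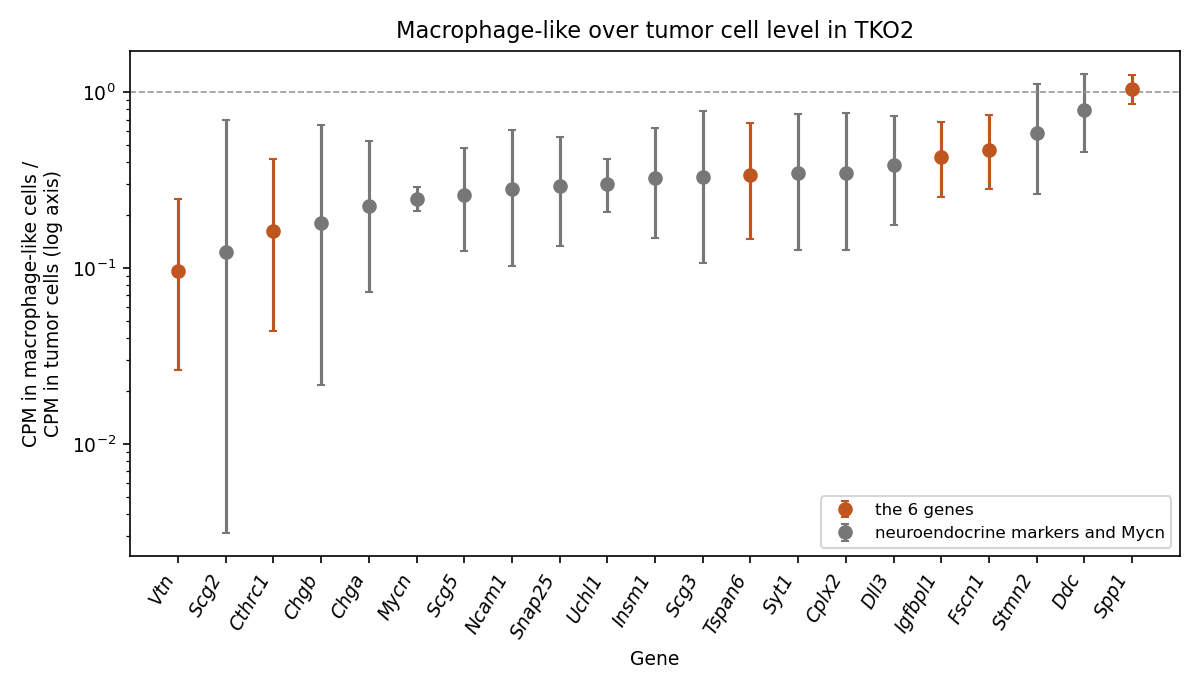
Ratio of CPM in macrophage-like cells to CPM in tumor cells of TKO2 (log axis) for the 6 genes (orange) and for the neuroendocrine markers and *Mycn* with at least 100 UMIs (grey, 1 marker not drawn), with exact intervals. *Spp1* sits at 1.04 on the right, and the other 5 genes lie between 0.0966 and 0.472 among the markers or below them.

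Tumor-cell UMIs were few in macrophage-like cells with *Spp1* and in those without. At 1000 UMIs per cell the neuroendocrine markers and *Mycn* summed to a mean of 0.240 UMIs in the 25 TKO2 cells with *Spp1* and 1.36 in the 89 without, and to 0.385 in 26 and 1.65 in 55 TKO1 cells. The median was 0 in all 4 sets, and their ranges overlapped. A list of 10 genes of tissue-remodelling macrophages had a median of 15 UMIs (0 to 59) with *Spp1* and 7 (0 to 55) without in TKO2, and 20.5 (4 to 127) and 12 (0 to 133) in TKO1. A list of 10 alveolar macrophage genes had medians of 2 and 0 in TKO2 and of 6 and 1 in TKO1, and the 3 *C1q* genes had 8 and 2 in TKO2 and 4.50 and 0 in TKO1. All 3 lists thus had a higher median in cells with *Spp1* in both tumors, and the ranges of the cells overlapped. The macrophage-like clusters also held markers of T and NK cells, at 999 CPM in TKO2 and 346 CPM in TKO1. Neutrophil markers summed to 182 and 848 CPM. The part of such cells in these medians and in the *Spp1* shares was not tested. The galectin-3 gene *Lgals3* stood at 4.84 and 2.33 UMIs in TKO2, and the lipoprotein gene *Apoe* at 20.1 and 7.29 in TKO1 but 3.20 and 3.81 in TKO2.

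Partners of the 6 genes in the matrix and at the cell surface did not share one direction between TKO2 and TKO1 tumor cells. Counts below are of members at least 4-fold apart among those tested, beside the 4.83% higher and 14.4% lower and the median of -0.37 for all genes. Of the integrin receptors and other partners of osteopontin and vitronectin 3 of 8 were higher and 3 lower (median -0.66). *Itgb1*, the shared beta chain, stood at 95.4 CPM in TKO2 and 291 in TKO1. *Itga9*, a chain that binds osteopontin, was 5.15-fold higher with 85 against 9 UMIs, and *Itgb5*, a vitronectin receptor chain, stood at 0.258 against 18.2 CPM. *Itgav*, the alpha chain of the vitronectin receptors, had 4 and 3 UMIs. *Cd44*, another osteopontin receptor, stood at 1.16 and 0.946 CPM in tumor cells but at 104 and 177 CPM in macrophage-like cells of TKO2 and TKO1.

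Of 12 matrix glycoproteins tested 3 were higher and 4 lower (median 0.73), and 4 were higher with TMM factors or with totals that left out mitochondrial and ribosomal protein genes. *Thbs4*, a thrombospondin gene, stood at 39.0 against 1.89 CPM, and *Fbln1*, the fibulin-1 gene, at 20.3 against 1.18 CPM. *Nov*, a matricellular growth regulator, was lower, at 367 against 3985 CPM, and *Thbs1* stood at 5.68 against 74.1 CPM. Of the collagen genes and their enzymes 3 of 9 were higher and 2 lower (median -0.73). The collagen lysyl hydroxylase gene *Plod2* had 151 UMIs in TKO2 and 1 in TKO1, while the fibrillar collagen genes *Col1a1* and *Col3a1* had 0 UMIs in both.

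The same lists were read in clusters 7 and 9 against the other TKO2 tumor cells. There 3 of 10 matrix glycoproteins were at least 4-fold higher, beside 1.94% of all genes: *Sparc* with 19.2 against 0 CPM, *Thbs3* with 21.6 against 0.434 CPM and *Agrn* with 4.34 CPM in the others and a log2 difference of 2.06. The procollagen protease gene *Bmp1* stood at 19.2 against 2.17 CPM and the integrin gene *Itga4* at 9.62 against 2.17 CPM. *Sparc* and *Thbs3* passed the limit of 10 UMIs only through clusters 7 and 9, so nothing is read from the 3 of 10. These genes had few UMIs and none approached the level of *Spp1* or *Vtn*.

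Of the actin bundling and filopodia genes beside *Fscn1*, 2 of 20 were higher and 5 lower in TKO2 (median -0.94; 4 lower with the other scalings). *Enah*, whose product extends filopodia, stood at 59.9 against 3.55 CPM and the formin gene *Fmnl2* at 9.68 against 0.237 CPM. *Espn*, a bundler of microvilli, stood at 177 against 940.0 CPM, *Pls1* at 0.258 against 15.4 CPM and the fascin relative *Fscn2* at 0.516 against 7.57 CPM. Of the tetraspanins 1 of 21 was higher, *Tspan33* at 8.26 against 0.710 CPM, and 7 were lower (median -0.95; 4 lower with the other scalings), among them *Cd9* at 1263 against 6890.4 CPM and *Tspan1* at 17.0 against 479.8 CPM.

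In the IGF system 1 of 8 genes was higher and 3 lower (median -1.74). *Igfbp2*, a binding protein gene, stood at 692 CPM in TKO2 and 55.4 in TKO1, and *Igf2*, a growth factor gene, at 1.29 and 98.0 CPM. *Igfbp7* had 0 UMIs in TKO2 and 38 in TKO1. In clusters 7 and 9 against the other TKO2 tumor cells 1 of 7 genes was at least 4-fold higher and none was 4-fold lower. The higher gene was *Igf2*, whose 10 TKO2 UMIs all lay in clusters 7 and 9, so it was tested only through them. *Igfbp2* stood at 388 and 729 CPM in that comparison. Of the Wnt planar polarity partners of *Cthrc1* none of 16 was higher and 3 were lower (median -0.93), among them the receptor gene *Ror2* at 0.258 against 5.91 CPM. The receptor genes *Ryk* (51.2 against 36.7 CPM) and *Ptk7* (23.4 against 36.2 CPM) were within 4-fold.

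The 6 genes lie on 5 chromosomes. *Cthrc1* (ENSMUSG00000054196) is at chr15:39076932-39087121 on the plus strand, *Tspan6* (ENSMUSG00000067377) at chrX:133891068-133898429 on the minus strand, *Fscn1* (ENSMUSG00000029581) at chr5:142960343-142973185 on the plus strand and *Igfbpl1* (ENSMUSG00000035551) at chr4:45809468-45826923 on the minus strand, all GRCm38. Their neighbours did not share their ratios. Within 500 kb the tested neighbours had median log2 ratios of TKO2 to TKO1 tumor cells between -0.32 and 0.86. The tested neighbours numbered 5 for *Cthrc1*, 6 for *Spp1*, 5 for *Tspan6*, 19 for *Fscn1*, 10 for *Igfbpl1* and 28 for *Vtn*. At most 1 neighbour of any member was at least 4-fold higher, beside 4.83% of all genes, so nothing is read from these counts. For *Tspan6* this neighbour was *Pcdh19*, with 41 UMIs in TKO2 and 0 in TKO1. Next to *Fscn1*, the actin gene *Actb* stood at 1359.8 CPM in TKO2 and 1243 in TKO1, and next to *Igfbpl1*, *Aldh1b1* stood at 29.8 and 18.5 CPM.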

How the data were processed

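Single-cell RNA-seq was available for TKO1 and TKO2, 1 library each. The authors deposited UMI counts per gene and barcode. The submitters' processing notes name Cell Ranger, Seurat and mm10, and versions are not given in the sources used here. Of the 27998 gene IDs 27645 matched GENCODE M21 (GRCm38).

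Barcodes with more than 500 detected genes and under 10% mitochondrial UMIs were kept, and the second limit removed none. Each tumor was clustered with Seurat 5.3.0 (R 4.3.3; genes in at least 10 cells, 1000 variable genes without the 6 members, 10 principal components, resolution 0.8), and clusters were named from marker lists. A neuroendocrine-like cluster had at least 3 markers 2-fold or more above the immune cells. A TKO2 cluster of 68 cells stayed unnamed. Scrublet in scanpy 1.11.5 called 0 doublets and so did not work here, and removing the cells above the 95th percentile of its score was an alternative.

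UMIs were summed over cells and divided by total UMIs (CPM), with exact Poisson intervals. Ratios had exact conditional binomial intervals and shares Clopper-Pearson intervals. In counts of genes past 4-fold, a group without any UMI was set to 3 UMIs, and every other count was kept. Where this would have reversed the difference, the ratio was taken as no difference. Genes needed 10 UMIs over both groups. Cells were thinned to 1000 UMIs with seed 1. Scripts used Python 3.11.15 and scipy 1.17.1, and TMM factors came from edgeR 4.0.16. The statistics were tested on simulated data.

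The 6 members and the gene lists were chosen with earlier results of these data known. Genes named in the text were the members, *Mycn*, cell type markers, the top or most changed members of each list, the 3 genes most like each member, and genes said to be chosen after their values were seen. Other genes of a list are named for their known link to a member.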

Additional observations from a re-analysis of the deposited data

Results flagged for a closer look

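Barcodes with at most 500 detected genes entered no comparison, yet held UMIs of the 6 genes above the limit that a count of 0 allows (3 UMIs). In TKO1, 1321 such barcodes held 20 *Spp1* UMIs, 7 of *Tspan6*, 5 of *Fscn1*, 4 of *Igfbpl1* and 4 of *Vtn*. In TKO2, 248 such barcodes held 22 UMIs of *Fscn1*, 19 of *Igfbpl1*, 15 of *Cthrc1*, 12 of *Tspan6*, 9 of *Spp1* and 8 of *Vtn*. The levels in TKO2 were 118 CPM for *Fscn1*, 102 for *Igfbpl1*, 80.6 for *Cthrc1* and 64.5 for *Tspan6*, and for *Spp1* 48.3 CPM against 476 CPM in TKO2 tumor cells. In TKO1, 10 of the 20 *Spp1* UMIs lay in 1 barcode.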

How the results depend on the processing

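All 6 members were at least 4-fold higher in TKO2 than TKO1 tumor cells in every alternative run. The same contrast chose them, with a lowest ratio of 33.0, so this count could hardly differ and nothing is read from it. The 2 members at least 4-fold higher in tumor than macrophage-like cells of TKO2 became 4 with barcodes of more than 200 genes. The count of members above the carryover of neuroendocrine markers, 0 in the report, became 1 with more than 200 genes and 1 with markers of at least 100 UMIs, the latter chosen after seeing the data (*Spp1*). With more than 1000 genes no cluster was macrophage-like, so neither count could be made. The median pair correlation stayed between 0.018 and 0.048, and that of *Spp1* with *Vtn* between 0.35 and 0.45. Of the single values 44 moved beyond their interval, and 220 did not. None that was past 4-fold changed sign, but the tumor over macrophage-like log2 ratio of *Spp1* (-0.06) ran from -0.66 to 0.07. The log2 ratio of *Spp1* to TKO1 was 3.85 over all retained cells, since TKO1 macrophage-like cells hold *Spp1*. Genes called between the tumors numbered 624 higher and 1866 lower, 380 and 1411 with more than 1000 genes, 377 and 1065 with at least 50 UMIs. *Spp1*-rich clusters (above 1000 CPM) held 47.6% of *Spp1* UMIs in 198 cells at resolution 0.4 and 94.9% in 552 cells at 1.2. *Cthrc1*, *Tspan6* and *Fscn1* were apart between *Epcam* sides in 6 of 6 clusterings and *Vtn* in 5. No paired analysis was possible because each tumor is 1 sample, and for the same reason no replicate could be left out. Depth limits the macrophage-like values, where 1 UMI in TKO1 is 7.07 CPM.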

Other observations

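The club-like cluster of TKO1 (106 cells) held 5 *Tspan6* UMIs in 2 cells and 0 UMIs of *Spp1*, *Fscn1* and *Igfbpl1*. The unnamed TKO2 cluster (68 cells, with club and neuroendocrine markers) held 95.4 CPM of *Igfbpl1* (12 UMIs, 49.3 to 167), 31.8 CPM each of *Tspan6* and *Fscn1* and 0 UMIs of *Spp1*. In cluster 7 of TKO2 *Speer4d*, of a multigene family whose members can share reads, stood at 365 CPM, against 38.9 CPM in cluster 9 and 2.02 CPM in the other tumor cells. The neuropeptide gene *Cartpt* had the opposite order, at 208 CPM in cluster 7, 579.6 CPM in cluster 9 and 17.6 CPM elsewhere. The imprinted RNA *H19* stood at 70.7 and 64.8 CPM in these clusters and at 0.867 CPM elsewhere, with 6 UMIs.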
